A study of Mus musculus with 2 samples.

Results

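The genes described here were 9 transcripts that had been picked out as higher in early-anagen melanocyte stem cells (McSCs) without *Oca2* UMIs than in those with them: *Apod*, *Fxyd5*, *Cd200*, *Capn6*, *Tnfrsf12a*, *Nkain4*, *Prkg2*, *Lgals3* and *Ckb*. They are 9 of the 32285 genes counted in both libraries, and all 9 were found. The working name for them was surface and secreted markers, which holds for 6 of the 9. *Capn6*, *Prkg2* and *Ckb* encode proteins that act inside the cell. The levels of all 9 against *Oca2* in early anagen were used to choose them, so those levels are given as a description, with no test.

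Droplet single-cell RNA sequencing (scRNA-seq) had been performed on GFP-positive cells sorted from back skin. The mice carried Dct-rtTA; tetO-H2B-GFP, transgenes by which doxycycline switches on a histone-tagged GFP wherever the *Dct* promoter is active. The animals were of mixed background and either sex, and both groups carried the same transgenes and no further allele. Early-anagen McSCs came from skin taken 4 days after depilation at 8 weeks of age, with doxycycline in the food for those 4 days. Bulb melanocytes came from the dissected lower end of fully grown (anagen VI) follicles at 5 weeks of age, also after 4 days of doxycycline and with no depilation named. Each condition was 1 library of cells combined from 4 mice, prepared with version 3 of the droplet kit for early anagen and version 2 for the bulb. McSCs had been released from the epidermis with trypsin, and bulb melanocytes from EDTA-treated, microdissected bulbs with collagenase and dispase. Age, depilation, follicle stage, way of cell isolation, kit and depth therefore changed together and cannot be told apart, and no test between conditions was possible.

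McSCs are the cells from which hair follicles draw their pigment cells. When a follicle starts to grow, most of them switch on pigment genes, and a smaller part also *Oca2*. This gene encodes a melanosomal membrane protein needed for melanin synthesis. Descendants of McSCs in the hair bulb fill the hair with pigment. The authors report that McSCs expressing *Oca2* can also go back to an undifferentiated state. Proteins on the cell surface or released from it are of practical use in this tissue because antibodies to them can mark or sort living cells.

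Of the released proteins, *Apod* encodes apolipoprotein D, a lipocalin that carries small lipids, and *Lgals3* encodes galectin-3, a sugar-binding lectin found both inside and outside cells. At the membrane, *Tnfrsf12a* encodes Fn14, the receptor of the cytokine TWEAK, and *Cd200* encodes a glycoprotein that dampens myeloid cells through its receptor. *Fxyd5* encodes dysadherin, a small regulator of the sodium pump, and *Nkain4* encodes a membrane protein that interacts with that pump. Inside the cell, *Capn6* encodes a calpain that lacks a working protease site and binds microtubules, *Prkg2* a cyclic-GMP-dependent kinase and *Ckb* the brain-type creatine kinase.

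The 9 genes lay on 8 chromosomes of GRCm38, with *Apod* at chr16:31296192-31314808 and *Cd200* at chr16:45382135-45409053, both on the minus strand, and *Capn6* on the X chromosome at chrX:143802231-143827414, also on the minus strand. RefSeq promoters (GRCm38.p6, the 250 bases before the start) were found for 7 of the 9 and were not found for *Nkain4* and *Prkg2*. To show what the members share in their DNA, 7 short motifs were searched on both strands. The E-box CACGTG, a form that MITF, the pigment cell transcription factor, can bind, was in none of the 7 windows and in 6.02% of all 32851 promoters. The M-box core CATGTG was in *Cd200* alone (12.2% of all promoters), the AP-1 motif TGANTCA in *Capn6* alone (6.75%) and the E2-box CACCTG in *Lgals3* alone (17.2%). The SOX motif ACAAAG was in *Apod* and *Ckb* (16.5%), the TEAD motif GGAATG in *Cd200* and *Ckb* (12.6%), and TATAAA in *Ckb* (12.4%). *Fxyd5* and *Tnfrsf12a* held none of the 7. No motif was in more than 2 of the 7 windows. A match is a description of letters and not a bound site. A match from each of 5 genes is given here (for *Lgals3* the one nearer the start) with the motif in capitals, each 5′ to 3′ on the strand of the gene, at chr16:31314875-31314904, chr16:45409168-45409197, chrX:143827452-143827481, chr12:111672349-111672378 and chr14:47373734-47373763 in turn.
*Apod*, SOX: agtggaaaatccACAAAGtgaaaaaaaata
*Cd200*, M-box core read on the other strand: gaaacatgcataCACATGtaaaataagata
*Capn6*, AP-1: gattttcctcgTGACTCAggatcagtttct
*Ckb*, TATA: gaatgaatgggcTATAAAtagccgccaatg
*Lgals3*, E2-box read on the other strand: cactgcggggcaCAGGTGaggggcacaggc

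Cells were kept when they held at least 1 *Dct* UMI, fewer than 3 *Krt10* and *Krt14* UMIs together, less than 5% mitochondrial UMIs and more than 10000 (early anagen) or 5000 (bulb) UMIs. This left 2785 of 11010 early-anagen barcodes, with a median of 24528 UMIs, and 3734 of 4327 bulb barcodes, with a median of 14286.5 UMIs. The 2 libraries shared 1 barcode sequence. All 8 melanocyte markers had a UMI in most cells of each library, and the 8 keratinocyte markers summed to 42.8 and 48.7 CPM (UMIs per 1000000 UMIs of the same cells). Of the bulb barcodes, 25 held under 10% of the library's median *Dct* level and were rich in *Krt17* (4934 CPM), a keratin of hair follicle sheaths. The members' medians between libraries and by *Oca2* in the bulb are therefore also given without them. Levels are UMIs summed over cells and scaled to CPM, with exact Poisson 95% limits. These limits, and the Clopper-Pearson limits of shares, cover counting error only.

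From early-anagen McSCs to bulb melanocytes, the summed level of all 9 genes was lower, by more than 2-fold for 7 of them. Of the 7298 genes with a mean of at least 10 CPM, 25.8% were more than 2-fold lower in the bulb and 16.4% more than 2-fold higher. *Nkain4* fell under that mean, so 6 of the 8 members among the tested genes were past 2-fold. The median log2 ratio of the 9 was -3.57, against -0.11 over all tested genes. The members had been chosen as lower with *Oca2* in these same early-anagen cells, and 96.2% of bulb cells held *Oca2*. The choice may therefore favour this direction, and the count and median are a description. Rescaling with TMM factors raised every log2 ratio by 0.31, which brought *Cd200* to 0.03, above 0, and left the other 8 genes lower in the bulb. With this rescaling 19.4% of tested genes were more than 2-fold lower and 24.1% higher.

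Among the transcripts of released proteins, *Apod* stood at 158.5 CPM in early anagen (95% limits 155.7 to 161.3) and 91.5 CPM in the bulb (89.0 to 94.1). Its log2 ratio was -0.79 (-0.84 to -0.74). *Lgals3* stood at 2660 CPM in early anagen and 906 CPM in the bulb, a log2 ratio of -1.56 (-1.57 to -1.54). Both transcripts therefore stayed well above the counting floor in the bulb, where *Apod* had a UMI in 49.9% and *Lgals3* in 85.3% of cells.

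The transcripts of the 4 membrane proteins divided. *Cd200* differed least, with 52.6 CPM in early anagen and 43.2 CPM in the bulb (log2 ratio -0.28, -0.36 to -0.21), and this is the gene whose direction turned with TMM factors. *Tnfrsf12a* stood at 233 and 35.2 CPM (log2 ratio -2.72, -2.79 to -2.66). The genes linked to the sodium pump had few or no UMIs in the bulb. *Fxyd5* stood at 47.9 CPM in early anagen and 1.84 CPM in the bulb (log2 ratio -4.70, -5.00 to -4.42), and 94 of its 103 bulb UMIs were in 4 cells. Without those 4 cells, which were singled out after their values had been seen, the log2 ratio was -8.21. *Nkain4* had 987 UMIs in early anagen (13.0 CPM) and none in the bulb. A count of 0 of 3734 cells allows a share of cells with a UMI of up to 0.0803%, and with 3 counts taken as the floor *Nkain4* was at least 242.8-fold lower there.

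The transcripts of all 3 intracellular proteins were also lower in the bulb. *Capn6* stood at 47.5 CPM in early anagen and 0.304 CPM in the bulb, where its 17 UMIs were in 17 different cells (log2 ratio -7.29, -8.07 to -6.60). *Prkg2* stood at 30.8 and 1.99 CPM (log2 ratio -3.95, -4.24 to -3.68), and *Ckb* at 102.5 and 8.61 CPM (log2 ratio -3.57, -3.71 to -3.44). In the plot of levels by library, the intracellular members and the pump-linked pair show the wide gaps, and *Cd200* and *Apod* the narrow ones.

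**Figure D1:**
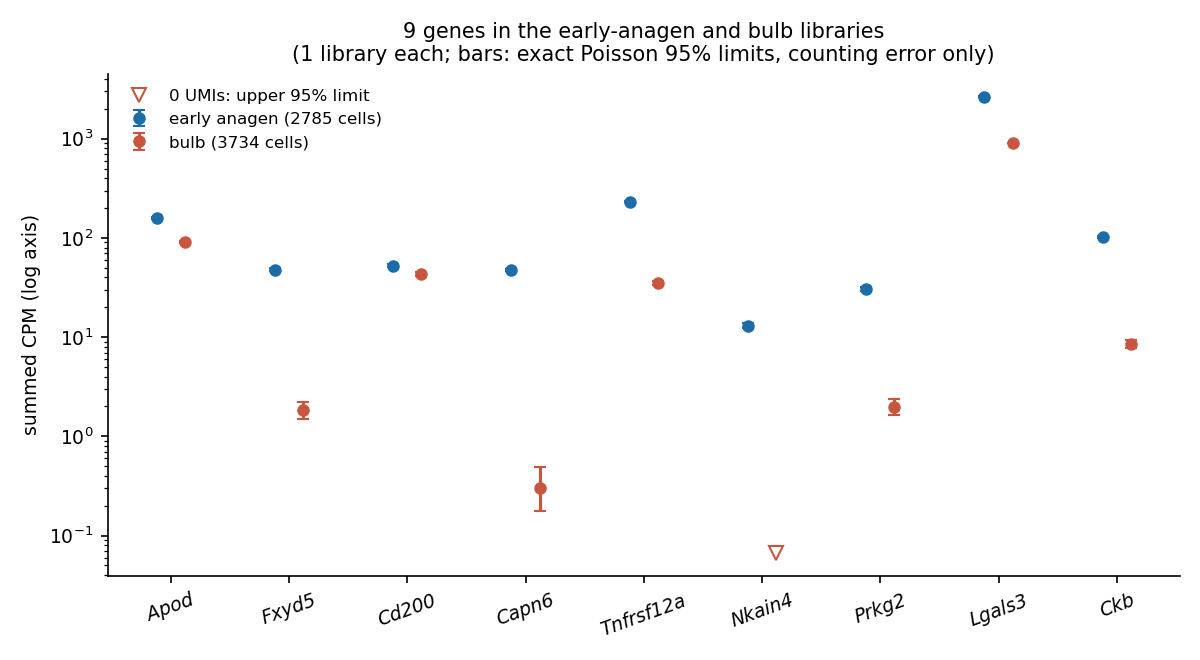
Summed CPM (log axis) of the 9 genes in early-anagen McSCs (blue, 2785 cells) and bulb melanocytes (red, 3734 cells), 1 library each, with exact Poisson 95% limits. *Cd200* (52.6 and 43.2 CPM) lies nearly level, and its order turns with TMM factors, whereas *Capn6* falls from 47.5 to 0.304 CPM and *Nkain4* has no bulb UMI, so that its upper limit is drawn.

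Depth differed between the libraries, so detection was also compared after every cell had been brought to 5000 UMIs by random draws. *Tnfrsf12a* then had a UMI in 56.1% of McSCs and 15.3% of bulb melanocytes, and *Ckb* in 34.4% and 4.02%. *Fxyd5* was seen in 19.2% and 0.187%, *Capn6* in 19.6% and 0.0803%, *Prkg2* in 13.9% and 0.991%, and *Nkain4* in 6.10% and 0%. *Lgals3* was seen in 99.0% and 74.9%. The gaps were narrower for *Apod* (37.6% and 27.4%) and *Cd200* (24.2% and 18.6%). Every gene was thus seen in a smaller share of bulb cells at matched depth. The share over all genes is not given here, so nothing is read from this count. Equal totals also do not replace the rescaling with TMM factors, with which *Cd200* turned.

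Barcodes of other cells in the same library give a share to set beside each of these. In the early-anagen library, 80 barcodes past the same UMI and mitochondrial limits were keratinocyte-like by *Krt10* and *Krt14*, with a median of 34055 UMIs against 24528 for the McSCs. *Apod* had a UMI in 71.7% of McSCs and 26.3% of these barcodes, *Fxyd5* in 49.7% and 21.3%, *Capn6* in 56.1% and 16.3%, *Ckb* in 73.8% and 43.8%, *Prkg2* in 43.4% and 8.75%, and *Nkain4* in 17.5% and 3.75%. These 6 genes were seen more often in McSCs although the McSCs were shallower. The other 3 members were less distinct by this measure. *Tnfrsf12a* was seen in 84.5% of McSCs and in 93.8% of the keratin-rich barcodes (233 and 299 CPM), *Lgals3* in 99.8% and 98.8% (2660 and 1867 CPM) and *Cd200* in 61.4% and 46.3% (52.6 and 51.2 CPM). *Tnfrsf12a* is therefore not particular to McSCs by this measure. Since the keratin-rich barcodes may be cells that express it, their share does not separate background from expression in McSCs.

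The bulb library held 1 keratin-rich barcode, so the 48 barcodes past the UMI and mitochondrial limits with low *Dct*, a comparison chosen after seeing the data, were used there instead. Of these 48, 25 are also among the selected bulb cells. Their median was 11260 UMIs against 14286.5. *Apod* was seen in 49.9% of bulb melanocytes and 10.4% of these barcodes (95% limits 3.47 to 22.7), and *Cd200* in 39.8% and 10.4%. By summed level *Apod* went the other way, with 91.5 CPM in bulb melanocytes and 128 CPM in these barcodes, from 70 UMIs in 5 of them. *Cd200* had 43.2 and 27.5 CPM. *Ckb* (10.7% and 6.25%) and *Lgals3* (85.3% and 81.3%) differed by less than the counting error of the 48. *Tnfrsf12a* (34.7% and 50%) and *Prkg2* (2.22% and 2.08%) were below these barcodes or level with them within counting error. The 48 were rich in *Krt17* (5066 CPM) and may hold cells that express these genes. Their shares therefore cannot separate background from expression in bulb melanocytes, and neither is read from them. *Fxyd5* was seen in 0.321% and 6.25%, but 4 of its 12 bulb cells held 13 to 41 UMIs each. *Capn6* and *Nkain4* were in 0 of the 48, which allows up to 7.40% (95% limit).

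Transcripts of partners of these proteins differed in both directions between the libraries. Of the 15 listed genes of the sodium pump and its small regulators 2 were tested, of which *Atp1b3*, a beta subunit of the pump, was within 2-fold (209 and 216.5 CPM, log2 ratio 0.05). Of 8 further galectin genes 5 were tested, and 3 were past 2-fold lower, *Lgals1* (712 and 292 CPM), *Lgals7* and *Lgals9*. The list also holds *Lgals3bp*, a galectin-binding glycoprotein, which was within 2-fold. Of the 3 tested genes of the TWEAK list, *Traf2*, an adaptor of such receptors, was higher in the bulb (10.4 and 21.03 CPM, log2 ratio 1.02), *Birc2*, a ubiquitin ligase of the same pathway, was lower (17.7 and 5.57 CPM, log2 ratio -1.67) and *Traf3* was within 2-fold (0.18). *Tnfsf12*, which encodes TWEAK itself, had 15.5 CPM in early anagen and 0.0537 CPM in the bulb, and *Map3k14*, the NIK kinase downstream of Fn14, had 1.44 and 9.02 CPM, both below the mean of 10 CPM for testing. Of the 4 CD200 receptor genes none reached the 10 CPM mean. Of the 3 tested genes of the cyclic-GMP list, *Gucy1b1*, a subunit of the soluble guanylate cyclase that makes the ligand of *Prkg2*, was lower in the bulb (156 and 1.95 CPM, log2 ratio -6.32), as *Prkg2* was. Of the 2 tested creatine genes, *Slc6a8*, which imports creatine, was higher in the bulb (20.8 and 158 CPM), opposite to *Ckb*. Of the 7 tested calpain genes 2 were higher (*Capns1* and *Capn10*) and 2 lower (*Capn1* and *Cast*, the latter an inhibitor of calpains). Of the 5 tested genes on the lipid carrier list 3 were higher, among them the fatty acid-binding *Fabp7* and *Bsg*, a membrane glycoprotein that is not a carrier itself, and none lower. Each list is short, and its counts stand beside 25.8% of all tested genes lower and 16.4% higher, so nothing particular to a list is read from them.

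Dissociation and stress genes also differed between the libraries. Of the 18 on the list, all tested, 8 were past 2-fold lower in the bulb and 1, *Dusp1*, was past 2-fold higher (42.2 and 259.5 CPM), with a median log2 ratio of -0.89. Their sum was 6646 CPM in early anagen and 4362 CPM in the bulb. The heat shock genes *Hspa1a* (351 and 5.06 CPM) and *Hspa1b* (257 and 0.125 CPM) and the stress-induced factor *Atf3* (244 and 24.4 CPM) were among those lower. The part of this list in the members' levels was not tested.

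By *Oca2* in early anagen, the contrast that chose the members, every one of the 9 was lower in *Oca2*+ cells. With cells thinned to 10000 UMIs, 288 cells had an *Oca2* UMI and 2497 had none. With all UMIs kept, 454 of the 2785 cells (16.3%) had one. Some *Oca2*-negative cells therefore do carry *Oca2* transcripts, and the classes are classes of detection. The members' median log2 ratio was -1.61 (0.03 over all 7451 tested genes), with 7 of the 9 past 2-fold and 1.37% of all tested genes past 2-fold lower. Nothing is read from this count, since it is what the choice used. *Apod* had 194 CPM in *Oca2*-negative and 42.4 CPM in *Oca2*+ cells, *Fxyd5* 57.9 and 15.3 CPM, and *Cd200* 64.8 and 21.5 CPM. *Nkain4* had 388 UMIs in the *Oca2*-negative cells and 0 in the 288 *Oca2*+ cells, at least 14.9-fold lower with the same floor of 3 counts. The weakest were *Lgals3* (2984 and 2063 CPM, log2 ratio -0.53) and *Tnfrsf12a* (266 and 155 CPM, log2 ratio -0.78).

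The number of *Oca2* UMIs in a cell separated the members further. Most of the gap lay between 0 and 1 *Oca2* UMI for *Apod*, at 194 CPM with none, 46.9 CPM with 1, 55.7 CPM with 2 and 25 CPM with 3 or more. *Tnfrsf12a* went down more gradually, from 266 CPM to 180, 174 and 96.4 CPM. *Lgals3* stood at 2173 CPM with 1 UMI, 1913 CPM with 2 and 1984.5 CPM with 3 or more, so both classes with more *Oca2* lay below the class with 1 beyond counting error, without an order between them. *Fxyd5* did not follow the order, with 13.3 CPM at 1 UMI and 32.8 CPM at 2. The classes with *Oca2* held 143, 61 and 84 cells, and 20 UMIs stand behind the *Fxyd5* value at 2. Pigment genes moved the other way, and 8 of 14 on the pigmentation list were past 2-fold higher in *Oca2*+ cells, where 1.38% of all tested genes were, such as *Trpm1* (log2 ratio 2.14) and *Slc24a4* (2.82).

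**Figure D2:**
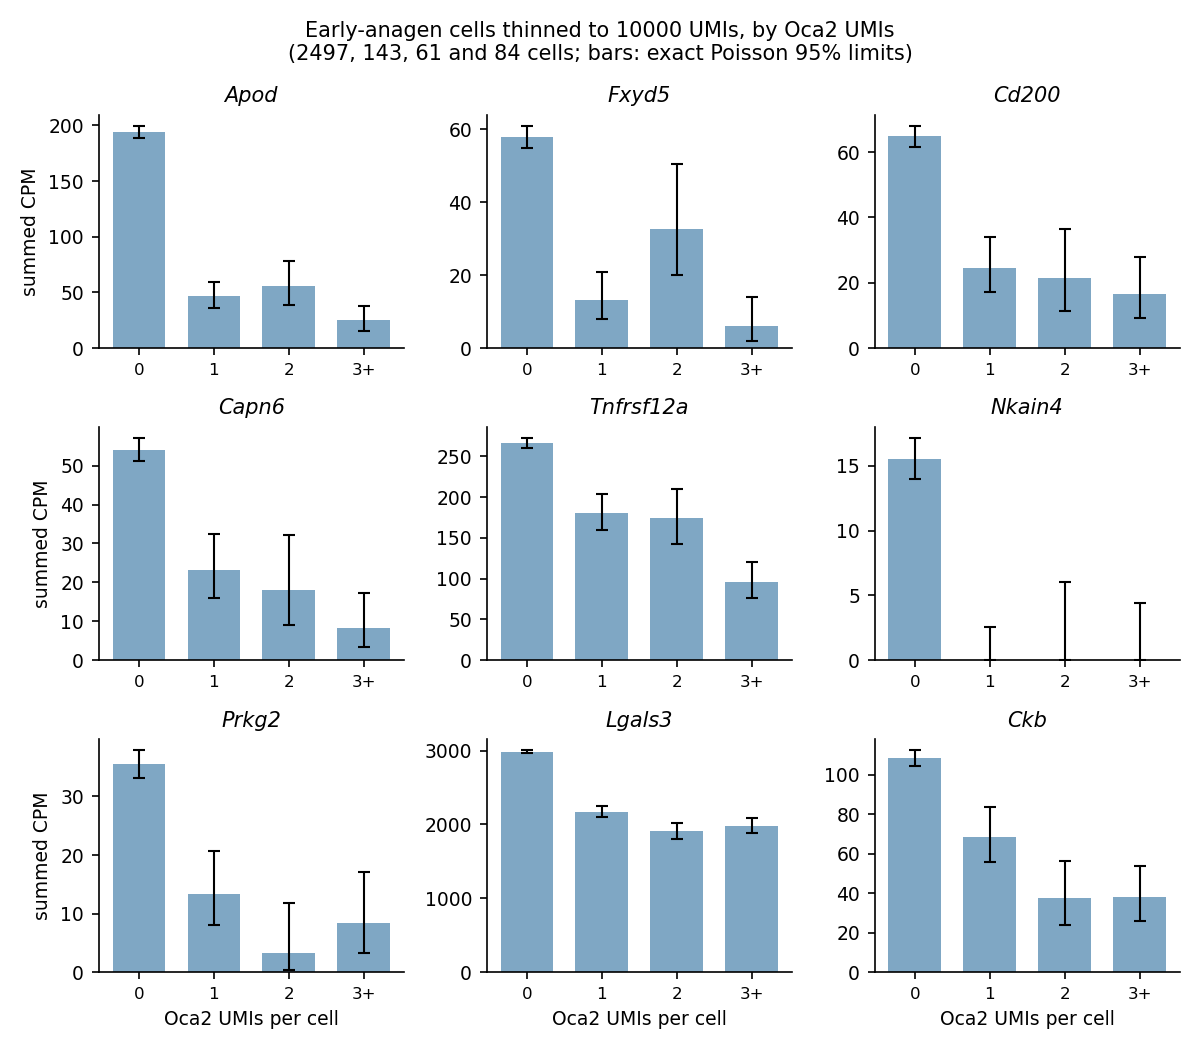
Summed CPM of each gene in early-anagen cells with 0, 1, 2 and 3 or more *Oca2* UMIs (2497, 143, 61 and 84 cells, each thinned to 10000 UMIs), with exact Poisson 95% limits. *Apod* drops from 194 to 46.9 CPM at the first *Oca2* UMI, *Tnfrsf12a* steps down to 96.4 CPM, and *Nkain4* has UMIs in the *Oca2*-negative class alone.

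Of the partner lists, the cyclic-GMP list alone held tested genes past 2-fold by *Oca2*. In *Oca2*+ cells 2 of its 4 tested genes were past 2-fold lower, where 1.37% of all tested genes were, *Gucy1b1* (156 and 69.1 CPM, log2 ratio -1.17) and *Gucy1a1* (20.3 and 8.33 CPM), the 2 subunits of soluble guanylate cyclase. None of the tested genes of the sodium pump, galectin, TWEAK, calpain, creatine and lipid carrier lists was past 2-fold in either direction. *Tnfsf12* had 18.3 CPM without and 14.9 CPM with *Oca2*. Of the 18 dissociation and stress genes 1, *Fosb*, was past 2-fold lower in *Oca2*+ cells (135 and 60.1 CPM), against the same 1.37%. Markers of other cells went in both directions with *Oca2*. The 6 immune markers summed to 21.2 CPM without and 7.99 CPM with *Oca2*, of which *Cd74*, the invariant chain of antigen-presenting cells, made up 16.7 and 1.39 CPM. The 8 keratinocyte markers summed to 54.3 and 39.2 CPM, with *Krtdap*, a gene of differentiating keratinocytes, at 20.8 and 3.82 CPM. Few cells carried these 2 genes. *Krtdap* had a UMI in 2.60% of cells without and 3.47% with *Oca2*, opposite to its level, and *Cd74* in 2.96% and 1.04%. Higher with *Oca2*, in the same order, were *Lyz2* of the immune list (2.24 and 6.60 CPM) and *Krt10* (13.9 and 19.4 CPM). The summed fibroblast markers were also higher (1.28 and 4.51 CPM). The part of these markers in the members' levels was not tested.

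The members also differed among cells that all lacked an *Oca2* UMI at 10000 UMIs, some of which held one with all UMIs kept. The 2497 *Oca2*-negative cells were ordered by their summed UMIs of 14 pigmentation genes and divided into quintiles of 499 or 500 cells, with medians of 78.5 pigmentation UMIs in the lowest and 284 in the highest. From the lowest to the highest quintile, 8 of the 9 genes were more than 2-fold lower, where 3.75% of 7471 tested genes were. The median log2 ratio of the 9 was -1.46, against 0.00 over all tested genes. Since the members had been chosen on *Oca2* in these same cells, and *Oca2* and the pigment genes go together, the count is a description.

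*Nkain4* had the steepest gradient across the quintiles, from 38.8 CPM to 21.2, 9.82, 5.61 and 2.20 CPM. *Fxyd5* went from 111 to 67.0, 53.7, 37.5 and 19.8 CPM and *Apod* from 359 to 238, 173, 115 and 84.4 CPM. Each of these levels was below the one before it. *Prkg2* (66.8 to 18.4 CPM), *Capn6* (86.6 to 31.5 CPM), *Cd200* (93.2 to 36.3 CPM), *Ckb* (134.6 to 60.3 CPM) and *Lgals3* (3439 to 2350 CPM) were lower in each successive quintile as well. *Tnfrsf12a* was the exception, with 281 and 287 CPM in the second and the third quintile between 362 CPM in the lowest and 170.5 CPM in the highest. That step was within counting error, as were some steps of other genes. *Ckb*, for example, had 134.6 CPM (124.6 to 145.2) in the lowest and 131 CPM (121.2 to 141.4) in the second quintile. *Lgals3* was the gene under 2-fold (log2 ratio -0.55).

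Other properties of the cells moved with the quintiles. The share of cells with an *Mki67* or *Top2a* UMI went from 44.8% to 21.8%, and the summed keratinocyte markers went from 128 to 28.9 CPM. The immune markers went from 34.2 to 10.8 CPM and the median mitochondrial share from 2.79% to 3.32%. Dissociation and stress genes summed to 7753 CPM in the lowest and 6775 CPM in the highest quintile. The part of these properties in the gradients was not tested.

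**Figure D3:**
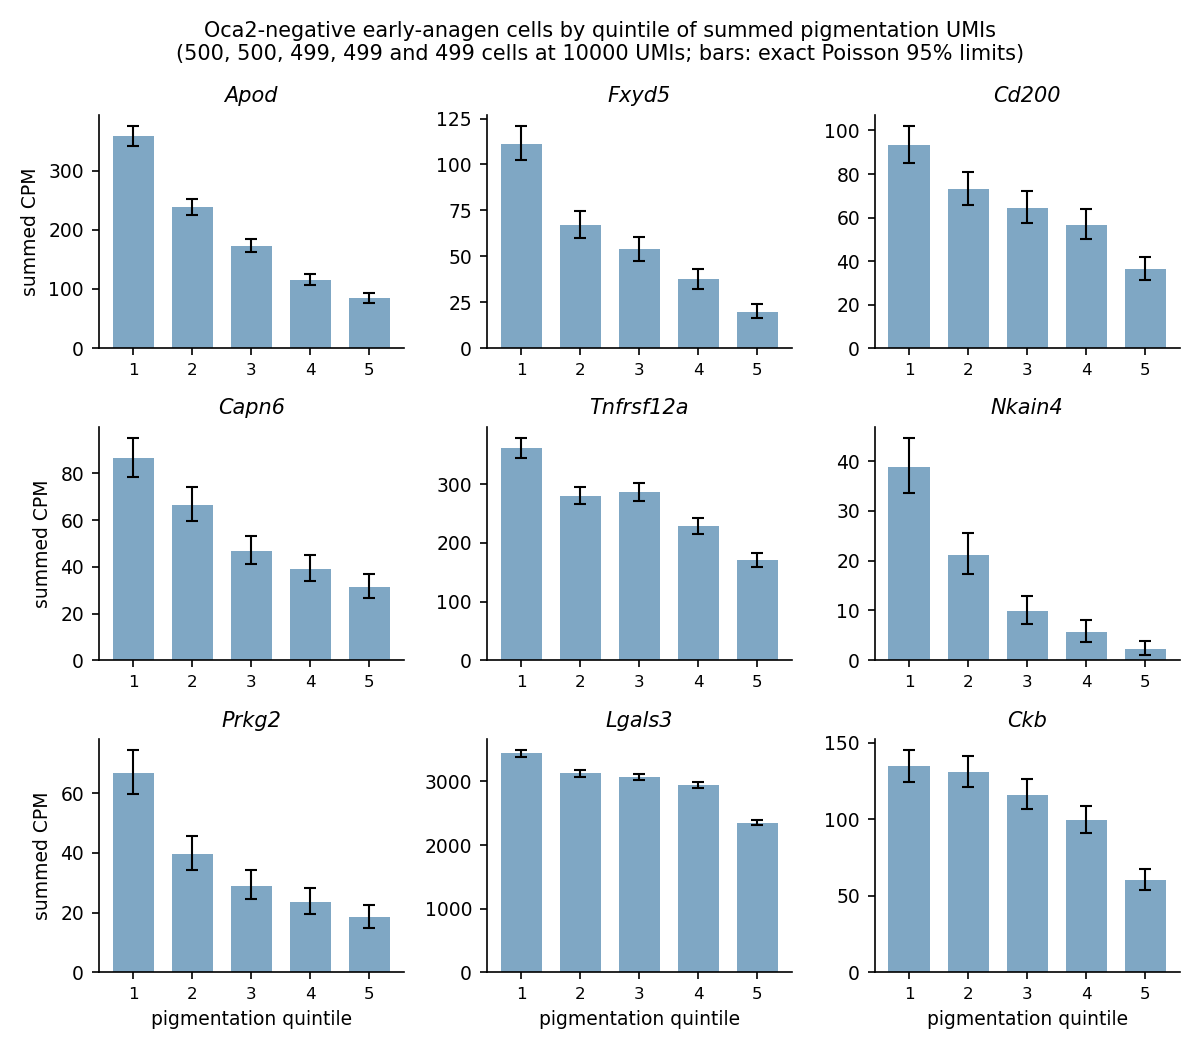
Summed CPM of each gene across quintiles of the *Oca2*-negative early-anagen cells, from the fewest (1) to the most (5) pigmentation UMIs, each cell thinned to 10000 UMIs, with exact Poisson 95% limits. Levels go down from left to right for 8 genes, as for *Nkain4* from 38.8 to 2.20 CPM, and *Tnfrsf12a* is level between quintiles 2 and 3. Some of the steps down are within counting error.

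By cell cycle, none of the 9 was past 2-fold between the 1012 early-anagen cells with an *Mki67* or *Top2a* UMI at 10000 UMIs and the 1773 without. Of 7466 tested genes 0.308% were past 2-fold lower in cycling cells and 4.06% higher. The members' median log2 ratio was -0.15, against -0.02 over all tested genes. *Mki67* had a UMI in 732 cells at this depth and 951 with all UMIs kept, and *Top2a* in 800 and 1024. Some cells called non-cycling therefore hold these transcripts, and these classes too are classes of detection. *Lgals3* was lower in cycling cells (3212 CPM in non-cycling and 2323 CPM in cycling cells, log2 ratio -0.47, -0.49 to -0.45), as were, in the same order, *Tnfrsf12a* (282 and 207 CPM, -0.45, -0.52 to -0.37), *Cd200* (65.7 and 50.9 CPM, -0.37, -0.52 to -0.22) and *Apod* (190.5 and 157 CPM, -0.28, -0.37 to -0.19). The counting limits of *Capn6* (-0.15 to 0.17), *Nkain4* (-0.26 to 0.35), *Prkg2* (-0.12 to 0.27) and *Fxyd5* (-0.31 to 0.01) included 0. *Ckb* had a log2 ratio of -0.13 (-0.24 to -0.02), which turned to 0.01 when cells with any *Krt10* or *Krt14* UMI were left out.

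*Oca2* was itself lower in cycling cells (29.2 and 11.7 CPM), so the split was repeated within *Oca2*-negative cells, 938 cycling and 1559 not. There the members' median was -0.22, again with none past 2-fold (0.389% of tested genes were past 2-fold lower and 4.2% higher). *Lgals3* had 3358 CPM in non-cycling and 2362 CPM in cycling cells, and *Tnfrsf12a* 300 and 210 CPM. *Fxyd5*, whose limits had included 0 in all cells, was lower in cycling cells here (61.1 and 52.6 CPM, log2 ratio -0.22, -0.38 to -0.06). *Capn6* (54.7 and 53.3 CPM), *Nkain4* (15.7 and 15.3 CPM) and *Prkg2* (35.6 and 35.3 CPM) were level within counting error. The difference by *Oca2*, which the choice of the genes used in these same cells, is given on both sides of the split as a description. *Apod* had 211 CPM in *Oca2*-negative and 38.3 CPM in *Oca2*+ non-cycling cells, and 165 and 54.1 CPM in cycling cells. The members' median log2 ratio by *Oca2* was -1.81 in non-cycling and -1.12 in cycling cells, the latter from 74 *Oca2*+ cells. The difference between these ratios was not tested.

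**Figure D4:**
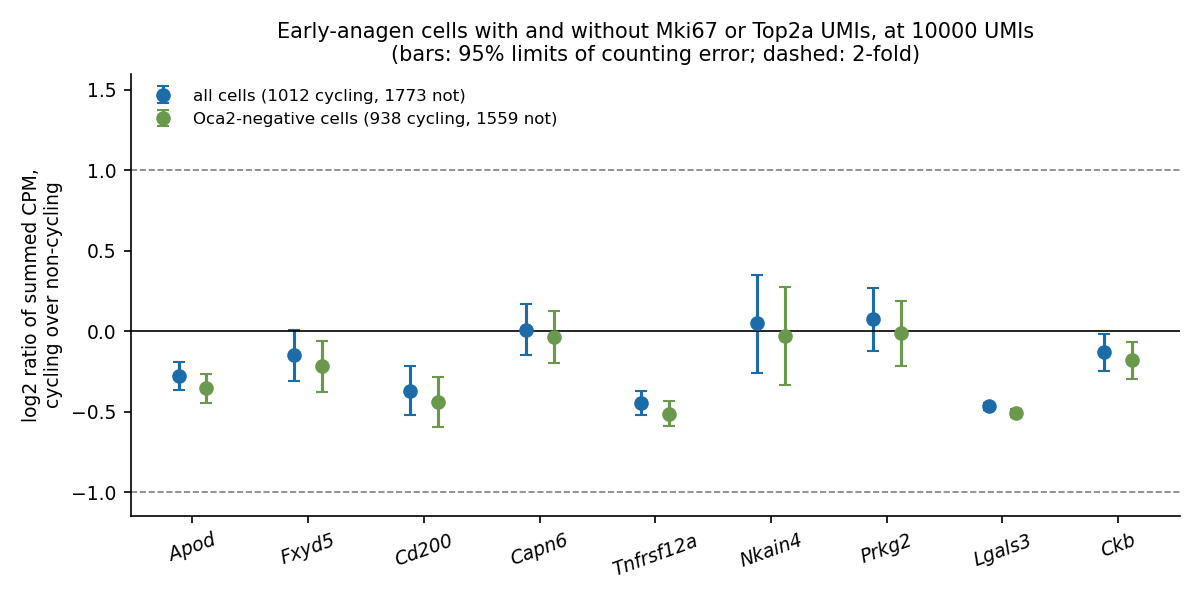
Log2 ratio of summed CPM, cycling over non-cycling early-anagen cells at 10000 UMIs, in all cells (blue) and in *Oca2*-negative cells (green), with 95% limits of counting error and dashed lines at 2-fold. All points lie within 2-fold, with *Lgals3* (-0.47 in all cells) and *Tnfrsf12a* (-0.45) lowest, and *Capn6*, *Nkain4* and *Prkg2* around 0. *Ckb* turns to 0.01 without cells holding keratin UMIs.

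The members were seen together in single cells to a limited degree. With cells thinned to 10000 UMIs, *Lgals3* was in 99.5% of early-anagen cells, *Tnfrsf12a* in 68.9%, *Ckb* in 53.3%, *Apod* in 52.2%, *Cd200* in 37.4%, *Capn6* in 33.6%, *Fxyd5* in 31.6%, *Prkg2* in 24.2% and *Nkain4* in 9.73%. A cell held a median of 4 of the 9. At least 5 were seen in 1096 of the 2785 cells (39.4%, 37.5 to 41.2), all 9 in 8 cells and none in 1 cell. These numbers depend on depth, since 17.1% of cells held 5 or more at 5000 UMIs and 72.0% with all UMIs kept.

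Of *Oca2*-negative cells 43.1% (41.1 to 45.1) held at least 5 members and of *Oca2*+ cells 6.94% (4.29 to 10.5), a gap that the choice of the genes fixes. Cycling and non-cycling cells did not differ beyond counting error, at 38.4% (35.4 to 41.5) and 39.9% (37.6 to 42.2). Seen from the other side, an *Oca2* UMI was present in 31.6% of the 471 cells with 0 to 2 members, 12.7% of the 591 with 3, 7.02% of the 627 with 4, 2.86% of the 525 with 5 and 0.876% of the 571 with 6 or more. All 8 cells with all 9 members lacked an *Oca2* UMI at this depth. This was fixed in advance, since *Nkain4* had 0 UMIs in the 288 *Oca2*+ cells. Pigmentation genes summed to 28064 CPM in the cells with 0 to 2 members and 12032 CPM in those with 6 or more. From the first to the last class the median UMIs before thinning went from 25920 to 22073 and dissociation and stress genes from 7048 to 7460 CPM. Keratinocyte markers stood at 133, 27.6, 38.4, 37.5 and 42.2 CPM over the classes in turn. Immune markers stood at 8.92, 11, 37.5, 19.05 and 19.09 CPM, so neither changed steadily. The part of these in co-detection was not tested.

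**Figure D5:**
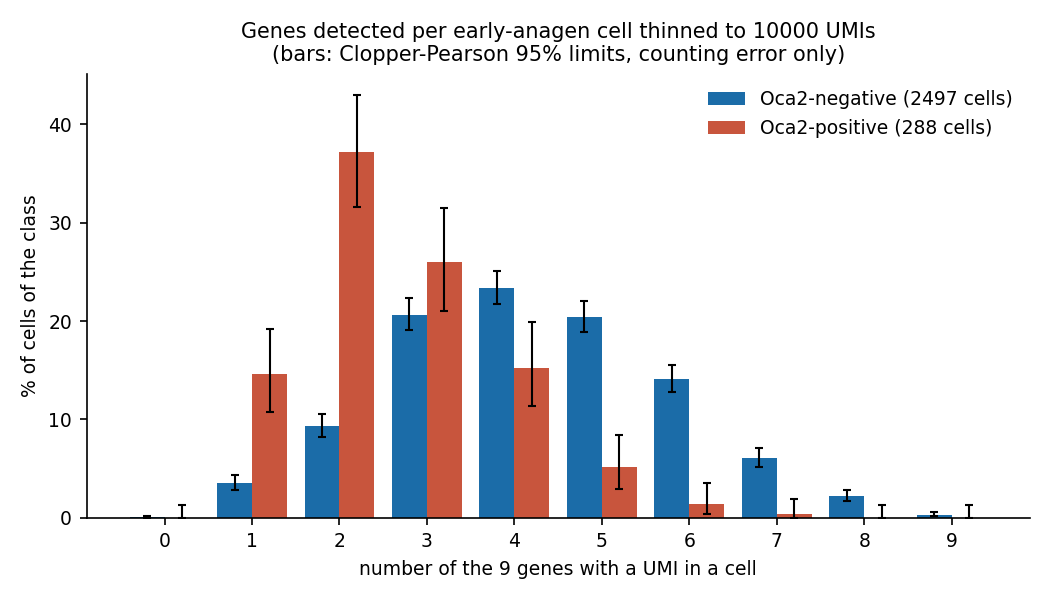
Share of *Oca2*-negative (blue, 2497) and *Oca2*-positive (red, 288) early-anagen cells in which 0 to 9 of the genes had a UMI, each cell thinned to 10000 UMIs, with Clopper-Pearson 95% limits. *Oca2*-positive cells centre on 2 genes (37.2% of them) and *Oca2*-negative cells on 4 (23.4%), a gap fixed by how the genes were chosen.

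Pair by pair, the correlations were low. Across the 2785 cells of this 1 library at one depth, the 36 Pearson correlations of log2(1 + UMIs) lay between 0.04 and 0.31 with a median of 0.11. In sparse counts values of this size are no finding. Sparse counts also lower such values, so they cannot show whether any pair goes together, and they are a description. The highest were *Tnfrsf12a* with *Lgals3* (0.31) and *Apod* with *Nkain4* (0.24). Of the cells with *Nkain4* 79.0% also held *Apod*, against 49.3% of the cells without it. Within the 1559 *Oca2*-negative non-cycling cells, the 36 values lay between -0.02 and 0.33, with a median of 0.10. UMIs were unevenly spread, and the 10% of cells with the most held 78.7% of *Nkain4* UMIs, 49.7% of those of *Apod* and 26.6% of those of *Lgals3*.

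The genes whose pattern was most like the sum of the 9 across cells, of 2680 compared at 50 CPM or more, were *Vim* (r = 0.52), which encodes the filament protein vimentin, *Anxa1* (0.48), a membrane-binding annexin, and the tetraspanin *Cd9* (0.38). *Cst3*, *Arpc1b*, *Arid5b*, *Lmna* and *Atf3* followed at 0.33 to 0.36. *Vim* was also the closest partner of 6 of the 9 single genes, among them *Capn6* (0.30), *Lgals3* (0.36) and *Apod* (0.29). *Tnfrsf12a* differed, with *Ifrd1* (0.44) and *Arid5b* (0.41) as its closest. The least alike were *Trpm1* (r = -0.58), *Mlana* (-0.52) and *Slc24a5* (-0.50), which are pigment cell genes, followed by *Id2*, *Pmel*, *Id3*, *Atp6v0c* and *Tyr*. Since the members had been chosen against *Oca2* in these same cells, and *Oca2* goes with the pigment genes, these values are a description. Of the 8 most like genes, 7 were lower in the bulb, *Vim* at 4602 and 50.2 CPM among them, and *Arpc1b* was higher (292 and 673 CPM). All 8 least like genes were higher in the bulb. Each of these differences was past 2-fold, where 25.8% of all tested genes were lower and 16.4% higher. The ranking rests on members chosen against *Oca2*, so these counts are a description as well.

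The same split by *Oca2* was made in the bulb library, where most cells held *Oca2*. At 5000 UMIs, 508 bulb cells had no *Oca2* UMI and 3226 had at least 1. Of the 7 members with a UMI on both sides, all 7 were lower in *Oca2*+ cells, with a median log2 ratio of -0.68 against -0.03 over all 6618 tested genes. The 2 members past 2-fold, *Fxyd5* and *Prkg2*, were below 10 CPM and not among the 4 members tested, so 0 of 4 were past 2-fold where 1.59% of all tested genes were lower. Without the 25 low-Dct barcodes the median was -0.65 and that share 0.853%. Cycling cells were also commoner on the *Oca2*-negative side, where *Top2a* had 26.8 CPM against 1.74 CPM, and the part of this was not tested.

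*Apod* had 128 CPM in bulb cells without *Oca2* and 80.0 CPM in those with it (log2 ratio -0.68, -0.86 to -0.50), and *Cd200* 68.5 and 42.4 CPM (-0.69, -0.93 to -0.44). *Cd200* continued downward with *Oca2*, from 51.0 CPM at 1 to 2 UMIs to 39.1 CPM at 3 to 5 and 23.7 CPM at 6 or more. *Apod* levelled off, at 86.1, 75.2 and 76.0 CPM. *Lgals3* had 1000 CPM without an *Oca2* UMI and 952, 862 and 771 CPM in the 3 classes with *Oca2* UMIs. *Prkg2* rested on 17 and 23 UMIs (6.69 and 1.43 CPM, log2 ratio -2.23, -3.20 to -1.24). The limits of *Tnfrsf12a* (log2 ratio -0.15, -0.45 to 0.18) and *Ckb* (-0.33, -0.94 to 0.32) included 0. With all UMIs kept, 3591 of the 3734 bulb cells (96.2%) had an *Oca2* UMI. Most of the 508 cells without one at 5000 UMIs therefore do carry *Oca2* transcripts, and the bulb classes are classes of detection.

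*Fxyd5* in the bulb was a matter of a few cells. Of 3734 bulb cells 12 had a *Fxyd5* UMI, and 4 of these held 41, 25, 15 and 13 UMIs. These 4, singled out after seeing the values, held 33015, 39215, 13145 and 8121 UMIs in all and 0, 9, 0 and 1 *Oca2* UMIs. Together they had 5744 CPM of *Lgals3*, 321 CPM of *Tnfrsf12a* and 235 CPM of *Apod*, against 897, 34.6 and 91.4 CPM in the 3722 bulb cells without *Fxyd5*. They held no *Cd200*, *Capn6* or *Nkain4* UMI. Without them the *Fxyd5* ratio by *Oca2* in the bulb rested on so few UMIs that its limits were -9.56 to 0.59 about a log2 ratio of -3.68, where all cells gave -4.67.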

How the data were processed

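For each of the 2 libraries the deposited values are raw counts of UMIs by gene and barcode, which the authors made with Cell Ranger (version 6.0.1 per the file headers) on the mm10/GRCm38 reference, with no filter on cell type. Barcodes held at least 500 (early anagen) and 504 (bulb) UMIs, and the files summed to 116800173 and 58161397 UMIs, of which 75718468 and 55883067 were in the cells kept. The data of telogen cells were not analysed here.

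Cells were kept by the limits stated with the results. Thinning drew UMIs without replacement with a fixed seed, at 10000 UMIs per cell for early anagen and 5000 for the bulb. *Oca2*+ meant at least 1 *Oca2* UMI and cycling at least 1 *Mki67* or *Top2a* UMI. Each condition had 1 library and cells are not replicates, so no p-value was computed. Ratios of summed counts have exact Poisson 95% limits, shares Clopper-Pearson limits, and a gene at 0 UMIs a bound at 3 counts, all for counting error only. A gene was counted as tested at a mean of at least 10 CPM and as past the threshold at 2-fold. No doublets were removed, and leaving out the 5% of cells with the most UMIs was an alternative. The low-Dct barcodes were those under 10% of their library's median *Dct* CPM.

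Named were the 9 members, members of the lists of related genes (those with the highest levels or past 2-fold), and the 8 genes most and 8 least like the summed members (from 50 CPM upwards, leaving aside mitochondrial, ribosomal protein and model-number genes). Some genes selected by this rule are not reported here. The members and lists were chosen with earlier results of these data known. Positions are from GENCODE M21 and promoters from RefSeq (GRCm38.p6). Of the 9 genes, 4 overlap another annotated gene by 60 to 420 bases (*Fxyd5*, *Capn6*, *Nkain4* and *Prkg2*), and how the counting treated those bases was not examined. The alternatives were other limits on UMIs, mitochondrial share, keratin and *Dct*, other depths, seeds and definitions, a total without mitochondrial, ribosomal protein and pigmentation genes, TMM factors and, chosen after seeing the data, leaving out low-Dct or *Fxyd5*-rich cells. Python 3.11.15, numpy 2.4.6, scipy 1.17.1, pandas 2.3.3 and matplotlib 3.10.9 were used, with R 4.3.3 and edgeR 4.0.16 for TMM factors. The ratios and limits were tested on simulated data.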

Additional observations from a re-analysis of the deposited data

Results flagged for a closer look

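*Apod* stood 0.62 higher on the log2 scale in cycling than in non-cycling bulb cells (132 and 85.9 CPM, 95% limits 0.08 to 1.12, from 33 UMIs in 50 cycling cells), whereas it was lower in cycling early-anagen cells (-0.28, -0.37 to -0.19). The 2 directions are opposite, and the difference between them was not tested.

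Barcodes outside the selection also held the members. The 8145 early-anagen barcodes that failed a limit and were not keratin-rich had a median of 2179 UMIs, and 7241 of them were under the UMI limit. They held 139.3 CPM of *Apod*, 48.5 CPM of *Fxyd5*, 55.0 CPM of *Cd200*, 37.7 CPM of *Capn6*, 268 CPM of *Tnfrsf12a*, 12.0 CPM of *Nkain4*, 24.6 CPM of *Prkg2*, 2612 CPM of *Lgals3* and 96.4 CPM of *Ckb*. The 592 such bulb barcodes, with a median of 1847 UMIs, held 66.0 CPM of *Apod*, 2.64 CPM of *Fxyd5*, 27.7 CPM of *Cd200*, 40.9 CPM of *Tnfrsf12a*, 2.64 CPM of *Prkg2*, 709 CPM of *Lgals3* and 7.04 CPM of *Ckb*. *Capn6* and *Nkain4* had no UMI in these bulb barcodes. The ordering of the 2 libraries by CPM was the same in these barcodes as in the selected cells for each of the 9 genes. These barcodes belong to the same 2 libraries, so this is no separate check. The share over all genes is not given here, and the *Cd200* order in selected cells turned with TMM factors.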

How the results depend on the processing

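With 1 library per condition no result has a replicate check. No paired analysis was possible because each condition has 1 library and no test was run. The median over the 9 genes of bulb over early anagen was -3.57, and became -3.73 with a total without mitochondrial, ribosomal protein and pigmentation genes, which lowers every log2 ratio by 0.16, and -3.26 with TMM factors, which raise every one by 0.31. Of tested genes past 2-fold, 61.2% were lower in the bulb as reported, 69.4% with the reduced total and 44.6% with TMM factors. *Cd200* turned to 0.029 with TMM factors. The median by *Oca2* in early anagen (-1.61) became -2.35 at 5000 UMIs, and that in the bulb (-0.68) became -0.97 with all UMIs. The median by cell cycle (-0.15) became -0.33 with cells holding 0 keratin UMIs, where *Ckb* turned to 0.0085. The share of cells with 5 or more members (39.4%) became 41.3% with 0 keratin UMIs, 17.1% when thinned to 5000 UMIs, 16.5% when cells over 5000 UMIs were added at that depth, and 72.0% with all UMIs. The causes of the *Cd200* and *Ckb* reversals beyond the stated rescaling were not tested. Gene by gene, the direction was kept in 98 of 99 alternatives between libraries, 90 of 90 by *Oca2* in early anagen, 72 of 81 by cell cycle and 33 of 35 by *Oca2* in the bulb. The direction by *Oca2* in early anagen is the one the choice used, so its count is no check. Besides the *Cd200* and *Ckb* reversals, values moved outside the limits set around the reported ratio in 33, 28, 18 and 11 alternatives, in the same order. Added after seeing the data, leaving out the low-Dct barcodes gave -3.57 between libraries and -0.65 by *Oca2* in the bulb, and leaving out the 4 *Fxyd5*-rich cells -3.59 and -0.67. Depth limits *Nkain4*, *Capn6*, *Fxyd5* and *Prkg2* in the bulb, where few or no UMIs were counted.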

Other observations

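The genes most like single members across the 2785 early-anagen cells differed in kind. Those most like *Apod* after *Vim* were *H2-K1* (r = 0.29) and *H2-Q7* (0.28), which encode class I histocompatibility proteins. Those most like *Cd200* after *Vim* were *Cst3* (0.18), a secreted protease inhibitor, and *Art3* (0.18), and those most like *Ckb* were *Anxa1* (0.21), *Eif5a* (0.20) and *Hsp90ab1* (0.19). *Mitf*, the pigment cell transcription factor, was the gene least like *Tnfrsf12a* (-0.41), and *Cthrc1* the gene least like *Lgals3* (-0.29). All values come from 1 library at 10000 UMIs per cell, are descriptions with no test, and are weak for the sparser genes.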
